A study of Homo sapiens with 4 samples.

Results

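The genes described here are the expressed members of the ZNF series, the numbered zinc finger genes of the human genome, in the libraries labelled NB4 (a promyelocytic leukemia line) with and without knockdown of LDB1. A member is a gene whose symbol is ZNF followed by a number and at most one letter from A to D, and whose mean over the 4 libraries is at least 3 FPKM (sequenced fragments relative to gene length and to the depth of the library). Of 28412 genes in the table, 430 bear such a symbol and 176 of these reached that level. All 176 are annotated as protein coding, 63 of them on chromosome 19 and 113 on other chromosomes. Members were thus chosen by the measured level, which was read from the same libraries, so their abundance is given below as a description.

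RNA was sequenced from 2 libraries of cells carrying the lentiviral control vector (sh-NC) and 2 libraries of cells carrying an shRNA vector against LDB1 (sh-LDB1). By the study's methods both vectors were delivered by lentivirus and cells were selected with puromycin. The labels title the controls SH_NC but also describe them as untreated, so whether the controls went through the same selection rests on the methods. RNA of all 4 libraries was total RNA. Of the 3 anti-LDB1 shRNAs that the study designed, the sequenced one is not named in the labels, nor do they state whether the 2 libraries of a group came from separate cultures. P-values therefore measure only the spread between these libraries, which may be technical.

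LDB1 itself, an adaptor that joins LIM-domain proteins and the GATA1 and TAL1 factors into one chromatin complex, was cut from 135.1 and 120.1 FPKM (sh-NC) to 10.2 and 9.47 FPKM (sh-LDB1), a log2 fold change of -3.56 (SE 0.077). Its LIM-domain partner LMO2 stood at 24.2 and 23.2 FPKM against 4.34 and 4.51 FPKM. Markers went partly against the label of the line. Of 8 promyelocytic and granulocytic markers with a row, 6 were tested. ELANE, the neutrophil elastase gene, was listed at 0 in 3 of the 4 libraries. The summed level of the 8 markers was 13.1 and 11.8 FPKM in sh-NC against 41.4 and 37.9 FPKM in sh-LDB1. This sum joins markers of both directions. LYZ went from 5.85 and 5.61 FPKM to 19.3 and 19.1 FPKM, and CSF3R from 1.10 and 1.08 FPKM to 9.46 and 8.49 FPKM. By the adjusted p, 4 of the 6 tested were higher and none lower. CEBPE went down from 1.55 and 1.27 FPKM to 0.924 and 0.340 FPKM without passing it. MS4A3, untested, went down from 0.472 and 0.0971 FPKM to 0 in both sh-LDB1 libraries. The summed level of 15 erythroid markers was 4188 and 4374 FPKM (sh-NC) and 390.3 and 354.1 FPKM (sh-LDB1), and all 14 that were tested fell. Of 20 proliferation genes, 16 fell more than 2-fold and all 20 had an adjusted p below 0.05. Among all tested genes 10.3% were called lower, and 37.4% were lower by the adjusted p alone. With each library scaled to an equal sum of FPKM, 11 of the 20 fell more than 2-fold and all 20 passed the adjusted p. The part of these shifts in any ZNF value was not tested, and in a bulk library fewer cells of one kind and less RNA per cell cannot be told apart.

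C2H2 zinc finger proteins are the largest class of human transcription factors. Each finger folds around a zinc ion held by a pair of cysteines and a pair of histidines, and a row of fingers reads a run of DNA bases. Many ZNF proteins carry a KRAB domain at their amino end, which recruits the corepressor TRIM28 and, through it, the histone methyltransferase SETDB1 and HP1 proteins. KRAB zinc finger genes arose by repeated local duplication, most of all on chromosome 19, and many of them silence transposable elements. Others lack KRAB and act in splicing, ribosome quality control or mitosis.

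The promoters of 4 changed members are given here, with a single window per gene. An FPKM value covers the whole gene, which may have other starts, and a link between window and value was not tested. Shown are the member with the largest rise (ZNF697) and, among those in the promoter table, the member with the largest fall (ZNF692). The others are the only changed members in that table whose promoter held a GATA motif (ZNF609) or a ZNF143 motif (ZNF451). Changed members without an entry there were not searched. Each runs from 250 bases before to 50 bases after the RefSeq start on GRCh38.p14, 5′ to 3′ on the strand of the gene, and capitals mark every match, on either strand, to the 6 motifs that were searched.
ZNF697 promoter, chr1:119648217-119648516, minus strand: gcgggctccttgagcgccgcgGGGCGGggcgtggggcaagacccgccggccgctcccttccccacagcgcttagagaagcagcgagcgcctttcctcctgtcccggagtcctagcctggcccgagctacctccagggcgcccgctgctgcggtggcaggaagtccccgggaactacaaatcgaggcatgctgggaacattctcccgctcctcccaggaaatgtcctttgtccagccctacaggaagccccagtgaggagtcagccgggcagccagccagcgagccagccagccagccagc
ZNF692 promoter, chr1:248859036-248859335, minus strand: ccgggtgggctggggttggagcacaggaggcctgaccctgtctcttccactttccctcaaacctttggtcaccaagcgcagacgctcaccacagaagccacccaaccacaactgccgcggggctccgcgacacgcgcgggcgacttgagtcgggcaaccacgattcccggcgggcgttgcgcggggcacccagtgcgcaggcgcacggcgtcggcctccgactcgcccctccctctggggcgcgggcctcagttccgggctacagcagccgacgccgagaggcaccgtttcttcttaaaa
ZNF609 promoter, chr15:64460328-64460627, plus strand: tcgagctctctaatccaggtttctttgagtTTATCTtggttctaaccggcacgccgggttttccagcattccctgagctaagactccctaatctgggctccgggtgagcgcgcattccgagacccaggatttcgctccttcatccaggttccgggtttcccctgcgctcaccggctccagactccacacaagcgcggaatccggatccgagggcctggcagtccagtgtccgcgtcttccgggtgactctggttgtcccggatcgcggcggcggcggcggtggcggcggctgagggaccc
ZNF451 promoter, chr6:57089938-57090237, plus strand: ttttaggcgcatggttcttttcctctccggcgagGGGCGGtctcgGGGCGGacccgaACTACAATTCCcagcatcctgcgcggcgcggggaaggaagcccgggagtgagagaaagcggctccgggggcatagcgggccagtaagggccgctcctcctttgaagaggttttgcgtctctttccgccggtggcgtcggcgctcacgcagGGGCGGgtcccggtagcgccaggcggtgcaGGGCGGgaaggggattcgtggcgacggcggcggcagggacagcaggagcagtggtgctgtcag
The motifs were the GATA motif AGATAA or TGATAA, the E-box CACGTG, the ZNF143 motif, the NRF1 motif, the CCAAT box and the GC box GGGCGG. Of the 176 members, 148 had an entry in the promoter table, and the other 28 are left out of these shares. A GATA motif stood in 9 of the 148 promoters (6.08%), against 7.66% of 8251 promoters of other tested genes and 16.6% of all 27305 promoters in the table. The GC box was found in 73.0% of members, 71.5% of other tested genes and 44.6% of all promoters. The median GC content was 63.3% in members and 65.3% in other tested genes. The ZNF143 motif stood in 3 promoters (2.03%), against 0.594% and 0.256%, and those of the E-box (8.78%, 10.7% and 7.43%), the NRF1 motif (2.70%, 2.53% and 1.36%) and the CCAAT box (42.6%, 37.2% and 35.7%) are given in the same order. A match is a run of letters in a window and was not taken as a bound site.

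Young ZNF duplicates share long runs of bases, which a second set of sequences shows. The stretch below codes for one finger and the linker after it in ZNF417 and ZNF587, which lie in the same group of genes near the end of the long arm of chromosome 19. Capitals mark the 2 of 78 bases at which the copies differ.
ZNF417, chr19:57909309-57909386, minus strand: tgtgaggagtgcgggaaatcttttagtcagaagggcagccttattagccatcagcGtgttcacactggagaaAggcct
ZNF587, chr19:57859304-57859381, plus strand: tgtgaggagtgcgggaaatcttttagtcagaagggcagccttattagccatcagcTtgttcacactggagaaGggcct
A finger and linker of ZNF888 are shown with the best-matching stretches of ZNF28 and ZNF761, 3 members that fell. In ZNF28 a tyrosine codon (tAt) stands in place of a cysteine codon (tGt), so its stretch is not an intact finger. Capitals mark the 13 positions at which the 3 are not all alike, and ZNF28 and ZNF761 differ from ZNF888 at 9 and 8 of the 78 bases.
ZNF888, chr19:52907515-52907592, minus strand: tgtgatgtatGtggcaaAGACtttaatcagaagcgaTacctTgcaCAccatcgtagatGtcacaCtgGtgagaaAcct
ZNF28, chr19:52801035-52801112, minus strand: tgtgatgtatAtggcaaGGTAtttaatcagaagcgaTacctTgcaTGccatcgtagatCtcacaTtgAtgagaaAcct
ZNF761, chr19:53455237-53455314, plus strand: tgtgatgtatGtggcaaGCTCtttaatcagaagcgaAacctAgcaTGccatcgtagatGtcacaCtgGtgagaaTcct
Of all 31-base words in the exons of ZNF417, 52.6% also occur in the exons of another gene, and 46.4% occur in ZNF587. The share was over 20% in 22 of the 176 members. The way in which shared reads were assigned is not given in the sources used here, so the values of these 22 members are uncertain.

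Summed over the family, the deposited FPKM of the groups overlapped. The median member was lower in sh-LDB1 and the share of the library total higher, both without overlap. The median member was at 5.57 and 5.68 FPKM (sh-NC) against 5.54 and 5.31 FPKM (sh-LDB1). The 176 members summed to 1412 and 1439 FPKM (sh-NC) against 1426 and 1427 FPKM (sh-LDB1), so the ranges of the sums overlap. Per library this was 0.442% and 0.450% (sh-NC) against 0.5001% and 0.507% (sh-LDB1) of a total that was 319063 and 319687 FPKM (sh-NC) and 285208 and 281397 FPKM (sh-LDB1). Replicates lay close together, with a median difference between the 2 libraries of 0.090 on the log2 scale in sh-NC (highest 0.557) and of 0.062 in sh-LDB1 (highest 0.378). A member rested on an estimated 42 to 6604 reads in a library, with a median of 509.

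In sh-LDB1, 7 members rose past 2-fold, led by ZNF697 and ZNF622, and 10 fell, led by ZNF512B and ZNF692. Differences were tested with limma on log2(FPKM + 1) over the 13300 genes with a mean FPKM of 1 or more, and a gene was called at a Benjamini-Hochberg adjusted p below 0.05 and a fold above 2 or below 0.5 on this scale, which understates the change of low genes. The 17 calls are 9.66% of the 176 members, where 19.8% of all tested genes were called, 9.50% higher and 10.3% lower. Among the 9362 genes with a mean FPKM of 3 or more, the level asked of members, the share was 21.7%, with 9.49% higher and 12.3% lower. By the adjusted p alone 45 members were higher and 68 lower, 64.2%, against 67.4% of all tested genes (29.9% higher and 37.4% lower) and 76.0% of the genes of member level (31.8% and 44.3%). The values of the groups did not overlap for 158 members, 89.8% beside 84.6% of all tested genes and 89.4% of the genes of member level. These counts include members with a mean below 3 FPKM in 1 group, which were counted as expressed through the other. Of 20 such members low in sh-LDB1, 18 were lower by the adjusted p and 5 were called. Of 11 low in sh-NC, 8 were higher by it and 2 were called. The direction of these members was set by the choice of members, so it is not read as a result. The difference between members and background was not tested.

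The log2 fold changes of the members ran from -1.25 to 1.70, with the middle part (the interquartile range) between -0.53 and 0.27, against -0.57 and 0.43 over all tested genes. The median absolute log2 fold change was 0.37 in members and 0.51 over all tested genes. For 138 members (78.4%) the 95% interval of the fold change lay wholly inside a 2-fold change, against 63.1% of all tested genes and 66.4% of genes with at least 3 FPKM. The signed median was -0.09 in members and -0.08 over all tested genes. Scaling each library to an equal sum of FPKM moved the median of all genes to 0.06 and that of the members to 0.06, and it turned the 7 rises and 10 falls into 10 rises and 4 falls, and the 45 higher and 68 lower by the adjusted p alone into 68 and 52, so the split between rises and falls depends on the scaling.

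**Figure D1:**
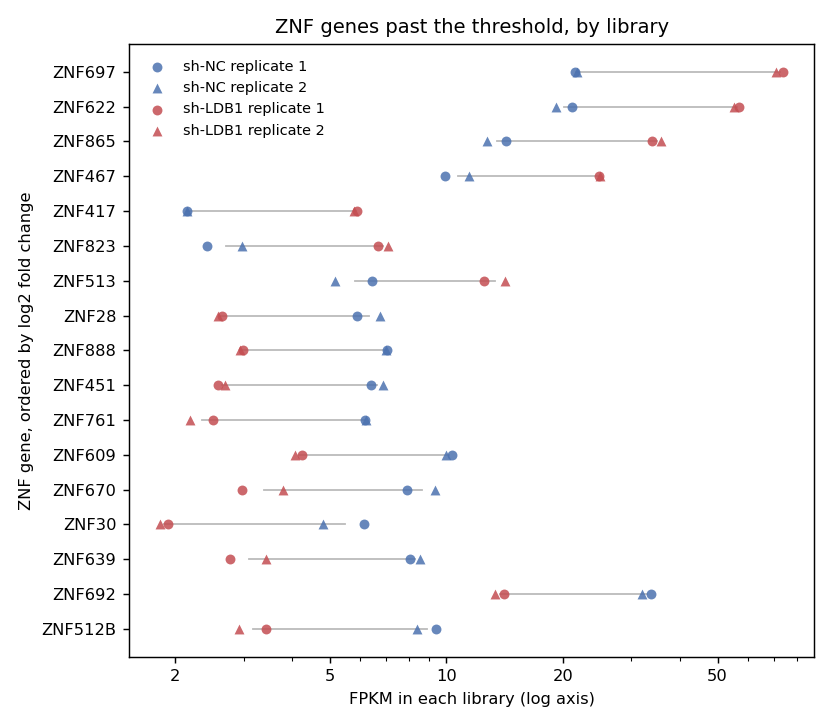
FPKM (log axis) in each of the 4 libraries for the 17 ZNF genes past the threshold, ordered by log2 fold change, with sh-NC in blue, sh-LDB1 in red, replicate 1 as circles, replicate 2 as triangles and a grey line between the group means. In all 17 genes the groups do not overlap, with 7 rises at the top and 10 falls below.

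ZNF697 showed the largest rise. This gene (ENSG00000143067, chr1:119619377-119648266, minus strand) stood at 21.4 and 21.7 FPKM (sh-NC) against 73.9 and 70.7 FPKM (sh-LDB1). It rose by 1.70 on the log2 scale (SE 0.044, 95% interval 1.58 to 1.82), and both sh-LDB1 libraries lay above every value of another member. With it the order of abundance changed: ZNF385A was the most abundant member in sh-NC and ZNF697 in sh-LDB1. ZNF622 (ENSG00000173545, chr5:16451519-16465800, minus strand), a factor in the maturation of the large ribosomal subunit, stood at 21.0 and 19.2 FPKM against 56.9 and 55.1 FPKM, a log2 fold change of 1.43. When limma was asked for a change beyond 2-fold (treat), ZNF697 and ZNF622 were the members that passed.

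ZNF865 (ENSG00000261221, chr19:55605647-55617269, plus strand) was the largest rise on chromosome 19, from 14.2 and 12.7 FPKM to 33.9 and 35.8 FPKM, a log2 fold change of 1.31. ZNF467 (ENSG00000181444, chr7:149764182-149773588, minus strand), studied for its part in the choice between fat and bone cell fates, stood at 9.92 and 11.5 FPKM (sh-NC) against 24.7 and 24.9 FPKM (sh-LDB1). Both lack a KRAB match, with 20 and 12 fingers. ZNF513 (ENSG00000163795, chr2:27377235-27380790, minus strand), a retinal disease gene, stood at 6.43 and 5.16 FPKM against 12.5 and 14.1 FPKM. Of the 176 members, 90 have exons that overlap another gene. Those of ZNF513 overlap SNX17 on the opposite strand over 12.7% of their length, and the use of strand is not given in the sources used here.

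The other 2 rises were KRAB genes of low level. ZNF417 (ENSG00000173480, chr19:57900296-57916610, minus strand) was at 2.15 FPKM in both sh-NC libraries against 5.88 and 5.79 FPKM (sh-LDB1). ZNF587 (the near copy shown above, named for that reason and not by the rule for named genes) stood at 6.55 and 6.54 FPKM against 11.8 and 11.3 FPKM, a log2 fold change of 0.74, and together this pair is known for silencing HERV-K endogenous retroviruses. Both copies were higher in both sh-LDB1 libraries, and how their shared reads divide between them cannot be told from the table. ZNF823 (ENSG00000197933, chr19:11721265-11739009, minus strand) stood at 2.41 and 2.98 FPKM (sh-NC) against 6.65 and 7.07 FPKM (sh-LDB1). Over the 7 rises the adjusted p (limma, Benjamini-Hochberg) lay between 8.04e-05 and 0.00155, and the fold change of ZNF697, 1.70, was the highest and that of ZNF513, 1.08 (SE 0.117), the lowest.

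The largest fall was that of ZNF512B (ENSG00000196700, chr20:63956704-63969930, minus strand), a gene associated with amyotrophic lateral sclerosis, from 9.40 and 8.40 FPKM to 3.42 and 2.93 FPKM. It fell by 1.25 on the log2 scale (SE 0.094, 95% interval -1.50 to -0.995), and 4.71% of its exon length overlaps an antisense gene. ZNF692 (ENSG00000171163, chr1:248850006-248859144, minus strand), also called AREBP, fell from the highest level of the 10, 33.7 and 31.9 FPKM, to 14.1 and 13.4 FPKM. ZNF639 (ENSG00000121864, chr3:179323031-179338583, plus strand), known as ZASC1 from squamous carcinoma, stood at 8.05 and 8.52 FPKM against 2.77 and 3.42 FPKM. None of these 3 had a KRAB match.

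ZNF609 (ENSG00000180357, chr15:64460578-64686068, plus strand), best known as the host gene of a circular RNA, stood at 10.3 and 9.98 FPKM (sh-NC) against 4.25 and 4.08 FPKM (sh-LDB1). The table holds 1 value per gene, so the circular RNA is not measured apart. ZNF451 (ENSG00000112200, chr6:57086844-57170305, plus strand), a SUMO ligase, stood at 6.38 and 6.86 FPKM against 2.58 and 2.69 FPKM. Its exons overlap an antisense gene over 6.28% of their length. These 2 genes carry the GATA and ZNF143 motifs shown above. Of the 9 members with a GATA motif in the promoter, ZNF609 was the only one called (19.8% of all tested genes were), and it lost its call with libraries scaled to an equal sum. As deposited, 4 of the 9 were higher and 1 lower by the adjusted p alone, beside 29.9% and 37.4% of all tested genes. With libraries scaled to an equal sum these counts were 6 and 1. Whether the 9 differ from other genes was not tested.

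The other 5 falls were KRAB genes, and 4 of them lie on chromosome 19. ZNF30 (ENSG00000168661, chr19:34926903-34945170, plus strand) stood at 6.15 and 4.82 FPKM (sh-NC) against 1.91 and 1.83 FPKM (sh-LDB1), the lowest sh-LDB1 level of the 10. ZNF670 (ENSG00000277462, chr1:247034637-247078811, minus strand) stood at 7.93 and 9.32 FPKM against 2.97 and 3.78 FPKM, and shares 5.19% of its exon length with the readthrough gene ZNF670-ZNF695. The next 3 are duplicates of each other within a single stretch of chromosome 19. ZNF888 (ENSG00000213793, chr19:52904415-52923470, minus strand) stood at 7.04 and 6.97 FPKM against 2.99 and 2.93 FPKM. ZNF28 (ENSG00000198538, chr19:52797408-52857600, minus strand) stood at 5.87 and 6.75 FPKM against 2.64 and 2.58 FPKM. ZNF761 (ENSG00000160336, chr19:53431984-53461862, plus strand) stood at 6.15 and 6.19 FPKM against 2.503 and 2.19 FPKM. All 3 fell by 1.02 to 1.10 on the log2 scale, and ZNF888, ZNF28 and ZNF761 share 36.4%, 26.6% and 27.8% of their exon words with other genes. Whether the same reads were counted in more than 1 of them was not tested. With libraries scaled to an equal sum of FPKM none of the 3 passed the fold threshold (-0.87, -0.88 and -0.97 in the same order), and neither did ZNF670 (-0.995), ZNF609 (-0.96) or ZNF451 (-0.93), which left 4 falls. Over the 10 falls the adjusted p (limma, Benjamini-Hochberg) lay between 0.000159 and 0.00168.

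Members of chromosome 19 and of other chromosomes were compared next, since that chromosome holds the family's clusters. The median chromosome 19 member stood at 4.91 and 5.34 FPKM (sh-NC) against 5.27 and 5.19 FPKM (sh-LDB1). The median member elsewhere stood at 6.07 and 6.08 FPKM against 5.84 and 5.72 FPKM. On chromosome 19, 3 of 63 members rose and 4 fell, and elsewhere 4 of 113 rose and 6 fell, where 9.50% of all tested genes were called higher and 10.3% lower. Apart from ZNF865, the chromosome 19 members called had a mean below 3 FPKM in 1 group and were counted as expressed through the other, so nothing is read from these counts. The counts by the adjusted p alone include such members too. By it, 20 were higher (31.7%) and 22 lower (34.9%) on chromosome 19. Elsewhere 25 were higher (22.1%) and 46 lower (40.7%), beside 31.8% and 44.3% of the genes of member level. With libraries scaled to an equal sum these counts were 28 and 17 on chromosome 19 and 40 and 35 elsewhere. As deposited, the median log2 fold change was -0.07 on chromosome 19 and -0.12 elsewhere, a gap of 0.05 that was not tested. The gap depends on the level at which a gene counts as expressed: with a threshold of 5 FPKM the medians were 0.19 and -0.16.

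Other genes of the same chromosome are set beside these members. Of 874 tested chromosome 19 genes that are not ZNF genes, 143 rose (16.4%) and 38 fell (4.35%), with a median log2 fold change of 0.24. Among the 626 of them with at least 3 FPKM, 106 rose and 29 fell, with a median of 0.21, whereas the 8560 such genes on other chromosomes had 775 rises, 1109 falls and a median of -0.15. The chromosome 19 ZNF members, with 4.76% higher and 6.35% lower, had a median of -0.07 beside the 0.21 of their neighbours. With libraries scaled to an equal sum of FPKM the medians were 0.07 and 0.37, and the members of chromosome 19 then had 5 rises and 1 fall. The difference was not tested.

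**Figure D2:**
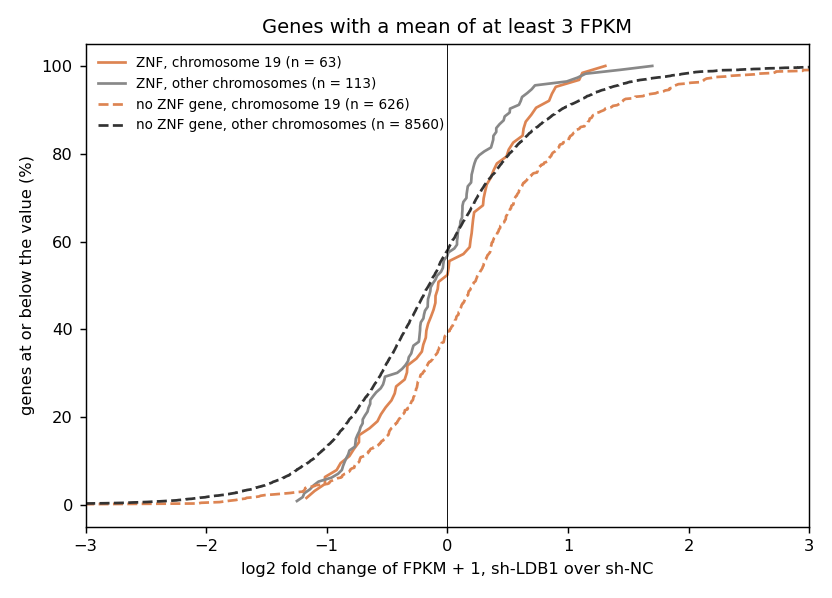
Share of genes (%, vertical) at or below each log2 fold change of FPKM + 1 (horizontal) for ZNF members of chromosome 19 (63) and of other chromosomes (113), drawn solid, and for genes that are not ZNF genes on chromosome 19 (626) and elsewhere (8560), drawn dashed, all with a mean FPKM of 3 or more. The dashed curve of chromosome 19 lies to the right, with a median of 0.21, while the solid curves cross the middle at -0.07 and -0.12 and are steeper.

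Along chromosome 19 the 63 members fall into 15 groups when a gap of over 1 Mb starts a new one. The largest of them, 14 members between 51571283 and 53461862, holds 13 KRAB genes. It held the falls of ZNF28, ZNF888 and ZNF761 and no called rise. Those 3 had a mean below 3 FPKM in sh-LDB1 and lost their call with libraries scaled to an equal sum. Nothing is read from these calls. By the adjusted p alone 4 of the 14 were higher and 7 lower, and their fold changes ran from -1.10 to 0.84. A group of 9 members between 55476617 and 56160893 without a single KRAB match held the rise of ZNF865, and 5 of the 9 were higher and 1 lower, with a median of 0.30. The last group, 13 members between 57435325 and 58431736 with 12 KRAB genes, had a median of 0.19, with 6 higher and 4 lower. Among all genes at 3 FPKM or more, 31.8% were higher and 44.3% lower by the adjusted p alone. Among such chromosome 19 genes that are not ZNF genes, the shares were 47.8% and 28.4%. Whether any group differs from these was not tested. With libraries scaled to an equal sum, the medians of the 3 groups were 0.02, 0.46 and 0.33. The higher and lower counts were then 6 and 6, 6 and 0, and 7 and 3. As deposited, values of both signs lie side by side in each of these 3 groups.

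**Figure D3:**
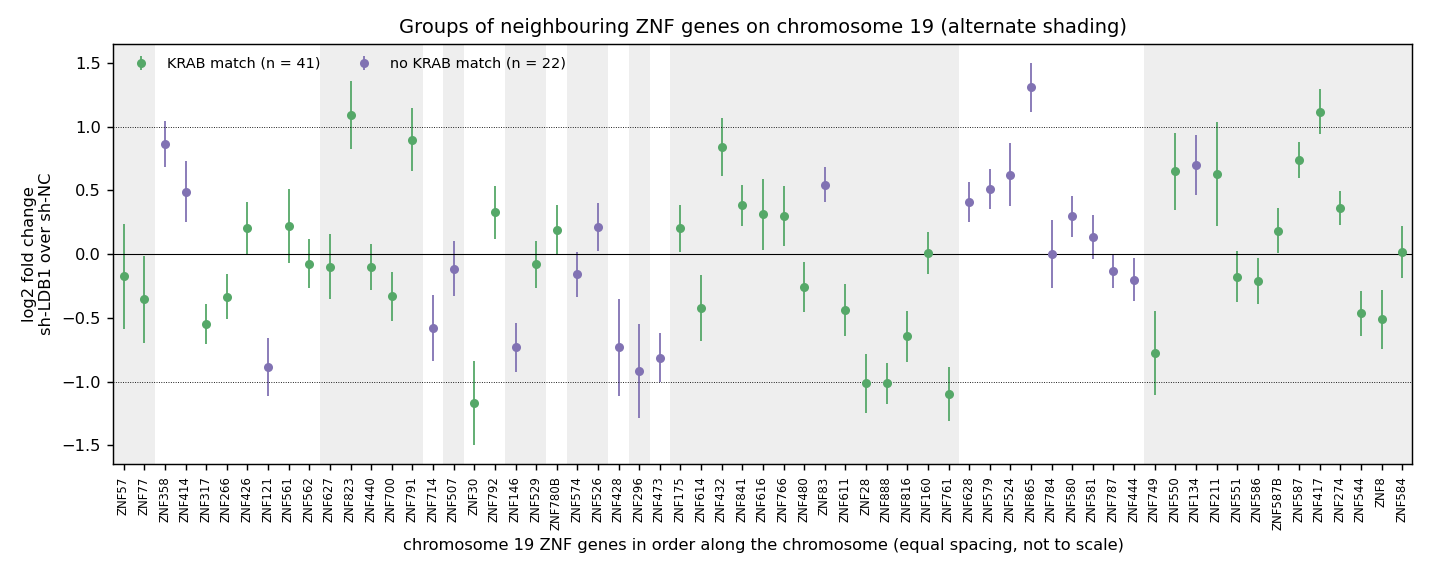
Log2 fold change with its 95% interval for the 63 chromosome 19 ZNF members in their order along the chromosome (equal spacing), with KRAB matches in green, other members in violet and alternate shading for groups more than 1 Mb apart. In the groups of 14, 9 and 13 members the medians are -0.12, 0.30 and 0.19, and values of both signs occur in each.

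Domain content was read from the translated coding sequence of each member. A KRAB match was found in 83 members and none in 93. The KRAB members were called in 7 cases (2 higher, 5 lower) and had a median log2 fold change of -0.04, and the others were called in 10 cases (5 higher, 5 lower) with a median of -0.14. Among all tested genes 19.8% were called, and 6 of the 7 KRAB members called had a mean below 3 FPKM in 1 group. With libraries scaled to an equal sum 4 KRAB members were higher and 1 lower, 6 of the others were higher and 3 lower, and the medians were 0.11 and 0.01, so neither class has a direction that holds under both scalings. The 4 changed KRAB members with the largest shared parts, ZNF417, ZNF888, ZNF761 and ZNF28, are among those whose values are uncertain. A SCAN domain, which pairs zinc finger proteins with each other, was found in 14 members, of which none was called. By the adjusted p alone 5 were higher and 4 lower, 64.3%, beside 67.4% of all tested genes (29.9% higher and 37.4% lower). By the unadjusted p 9 passed. With libraries scaled to an equal sum 7 were higher and 3 lower by the adjusted p alone.

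The number of fingers ran from 0 in ZNF330 to 36 in ZNF142. The 36 members with at most 4 C2H2 fingers had 6 higher and 21 lower by the adjusted p alone and a median log2 fold change of -0.22. Among all genes at 3 FPKM or more, 31.8% were higher and 44.3% lower by that p, and with libraries scaled to an equal sum the counts were 11 and 16. The medians were -0.08 in the 64 members with 5 to 9 fingers, -0.03 in the 48 with 10 to 14 and 0.03 in the 28 with 15 or more. Members with at most 4 fingers were also the more abundant ones, with median levels of 10.2 and 9.87 FPKM in sh-NC, against 4.70 and 5.13 FPKM for 10 to 14 fingers. With libraries scaled to an equal sum the 4 medians were -0.07, 0.07, 0.11 and 0.18, in order of finger number. No test was made across these classes, and level and finger number were not told apart.

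**Figure D4:**
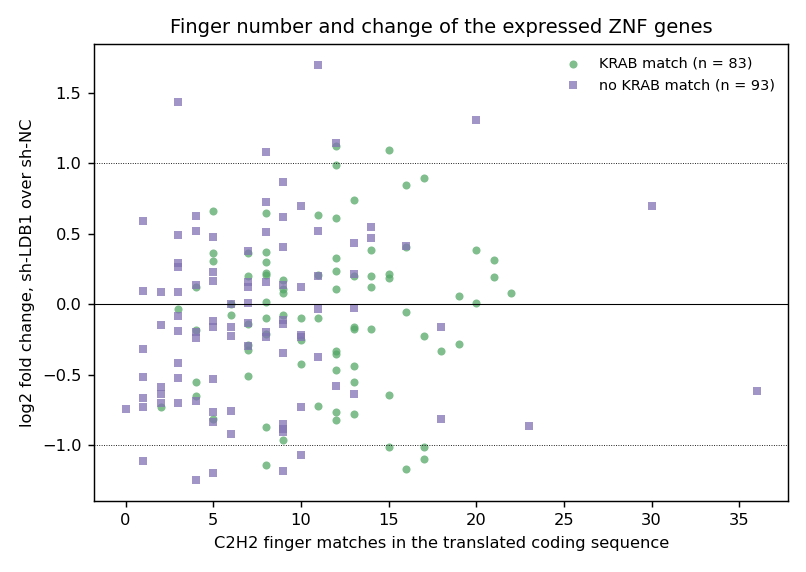
Log2 fold change (vertical) of the 176 expressed ZNF genes against the number of C2H2 finger matches in the translated coding sequence (horizontal), with the 83 KRAB members as green circles and the 93 others as violet squares. The dotted lines mark a 2-fold change on the FPKM + 1 scale, and points of both signs occur at nearly every finger number.

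The 6 most abundant members were ranked by the mean over all 4 libraries. They include the largest rises, ZNF697 and ZNF622, whose rise itself lifted their rank, so nothing is read from that overlap. The set also holds members that did not pass the test. ZNF385A, first described as a hematopoietic zinc finger protein and a partner of p53, stood at 51.9 and 52.9 FPKM (sh-NC) against 49.6 and 49.1 FPKM (sh-LDB1). Its log2 fold change of -0.09 (95% interval -0.19 to 0.02) did not pass the test. ZNF598, the ubiquitin ligase that senses collided ribosomes, stood at 32.0 and 33.8 FPKM against 48.6 and 51.7 FPKM, a log2 fold change of 0.59 with no overlap. ZNF146, a protein made almost wholly of fingers, stood at 32.3 and 35.4 FPKM against 20.8 and 19.1 FPKM, a log2 fold change of -0.73. ZNF581 stood at 25.9 and 25.7 FPKM against 26.9 and 29.9 FPKM, and its interval of -0.04 to 0.30 includes 0. ZNF697 and ZNF622 complete this set.

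Members with a known cellular role were read from a list, whatever their values. Of its 31 genes, 18 are members, 11 were below 3 FPKM and 2 had no value that was analysed here. The RNA and ribosome factors split: ZNF622 and ZNF598 were higher, as given above. ZNF638, an RNA- and DNA-binding protein that silences unintegrated retroviral DNA together with the HUSH complex, stood at 10.8 and 10.6 FPKM (sh-NC) against 6.78 and 6.79 FPKM (sh-LDB1), a log2 fold change of -0.59. ZNF318, which is required for the splicing that makes IgD, had a log2 fold change of -0.15 with an adjusted p of 0.0482 (limma), and with libraries scaled to an equal sum its sign turned (0.0064). ZNF207, also called BuGZ, loads the checkpoint protein BUB3 onto kinetochores, and it stood at 20.3 and 21.8 FPKM against 13.3 and 13.1 FPKM. ZNF367, a gene linked to the cell cycle, stood at 10.3 and 12.5 FPKM against 6.39 and 6.78 FPKM. In both genes the groups did not overlap. The proliferation genes were lower in the same libraries (median log2 fold change -1.20, or -1.04 with libraries scaled to an equal sum), and their part was not tested.

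Among the transcription regulators, ZNF217, an oncogene that works with CoREST-type corepressors, was higher at 13.5 and 13.1 FPKM in sh-LDB1 against 7.49 and 7.79 FPKM in sh-NC, a log2 fold change of 0.73. ZNF24 had a log2 fold change of 0.52, ZNF335, a subunit of histone methyltransferase complexes, of 0.43, and ZNF274 of 0.36. ZNF274 is itself a KRAB protein that brings SETDB1 to the ends of other ZNF genes, and it stood at 8.09 and 7.87 FPKM (sh-NC) against 10.7 and 10.4 FPKM (sh-LDB1). ZNF281, a regulator of pluripotency genes, had a log2 fold change of -0.42 and passed the adjusted p. The closely related promoter factors ZNF143 and ZNF76 gave 0.12 and 0.16, with intervals of -0.05 to 0.30 and 0.01 to 0.31, and neither passed the adjusted test. ZNF384, a fusion partner in B-cell leukemia, gave 0.16, ZNF263 0.11, ZNF644, a partner of the methyltransferases EHMT1 and EHMT2, 0.01, and ZNF589 -0.19, with adjusted p (limma) of 0.0659, 0.167, 0.914 and 0.0672.

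The threshold of 3 FPKM parts genes of nearly equal level. Just inside stood ZNF652 with a mean of 3.06 FPKM and ZNF8 with 3.01 FPKM, and just outside ZNF517 and ZNF641, both with 2.99 FPKM. Of the 176 members, 145 had a mean FPKM of 3 or more in both groups, 20 only in sh-NC and 11 only in sh-LDB1. The 20 and the 11 had to differ. Among the 145 there were 5 rises and 5 falls (3.45% each), beside 9.49% and 12.3% of the genes of member level. Those genes were not held to 3 FPKM in each group, and the difference was not tested. Below the threshold 121 further ZNF genes were tested, of which 2 rose (1.65%) and 4 fell (3.31%), against 9.50% and 10.3% of all tested genes. Their median log2 fold change was -0.10. Of the genes with a known role, ZNF675 was one of these falls, from 2.83 and 3.46 FPKM to 0.865 and 0.945 FPKM, while ZNF711 at 3.72 and 3.86 FPKM against 1.46 and 1.49 FPKM missed the fold threshold (-0.95). ZNF91, a KRAB protein known for silencing SVA elements, stood at 1.63 and 2.10 FPKM against 1.60 and 1.51 FPKM, and its group means differ by less than its 2 sh-NC libraries do.

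Other C2H2 families gave a mixed picture. Of 32 tested ZBTB genes, 4 rose and 1 fell (12.5% and 3.13%, against 9.50% and 10.3% of all tested genes), led by ZBTB18, a neuronal and B-cell repressor, at 2.01 and 2.88 FPKM in sh-NC against 21.5 and 19.8 FPKM in sh-LDB1. The other 3 rises were ZBTB41, ZBTB22 and ZBTB12, and the fall was ZBTB2, which was not called with libraries scaled to an equal sum or by the median of ratios. None of 9 ZSCAN and 6 ZKSCAN genes was called by limma. By the adjusted p alone 5 ZSCAN genes were higher and 1 lower, beside 29.9% and 37.4% of all tested genes. By the unadjusted p 7 ZSCAN genes passed, while 2 ZKSCAN genes were higher by either p. Of 10 ZFP genes, ZFP36 and ZFP41 rose and ZFP36L2 fell, but ZFP36 and ZFP36L2 bind messenger RNA through fingers of another type and share only the prefix. These genes were named after their values were seen.

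Partners through which KRAB proteins act were taken from a list. Of 36 tested corepressor and heterochromatin genes, none rose and 5 fell, 13.9%, against 9.50% and 10.3% of all tested genes. By the adjusted p alone 2 were higher and 23 lower, against 29.9% and 37.4% of all tested genes, and with libraries scaled to an equal sum 4 and 17. Their median log2 fold change was -0.36, or -0.23 with that scaling, and whether they differ from other genes was not tested. TRIM28, the corepressor that KRAB binds, stood at 213.2 and 213.7 FPKM (sh-NC) against 177.5 and 182.6 FPKM (sh-LDB1), a log2 fold change of -0.24 (SE 0.040) that did not reach the fold threshold. With libraries scaled to an equal sum it was -0.073 (adjusted p 0.204, limma). SETDB1 stood at 7.47 and 7.57 FPKM against 7.22 and 6.80 FPKM, with no overlap but without passing the test (-0.09, adjusted p 0.226, limma). The 5 falls, named after their values were seen, were CBX3 (-1.91), which codes for an HP1 protein, DNMT3B (-1.29), SUV39H2 (-1.28), RBBP4 (-1.23) and DNMT3A (-1.18). The proliferation genes named above were lower in the same libraries.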

How the data were processed

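After read filtering and alignment with HISAT, the authors deposited 1 table of FPKM per gene and library. The submitters' processing notes name HISAT2 2.0.5 and hg38; the counting tool, annotation and strand use are not given in the sources used here. The deposited FPKM were taken as log2(FPKM + 1). Genes with a mean FPKM of 1 or more (13300 of 28412) were tested with limma 3.58.1 in R 4.3.3 (lmFit, eBayes with a trend, 2 against 2 libraries, no covariate), with Benjamini-Hochberg adjustment, and called at an adjusted p below 0.05 and a fold above 2 or below 0.5. This step was tested on simulated data. The table holds no counts, so edgeR and DESeq2 were not used here.

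Positions came from GENCODE release 44 (GRCh38), matched by Ensembl ID for 28193 genes. Fingers were counted by the pattern of 2 cysteines and 2 histidines in the translated coding sequence, and KRAB and SCAN domains with pyhmmer 0.12.3 profiles built from these genes (E-value below 0.0001). Read totals were estimated from the step of low FPKM values on annotated exon lengths: 18895948 and 17331580 (sh-NC) against 17232255 and 16186429 (sh-LDB1), with 93.8% to 94.2% of low values within 0.1 of a whole read. Such estimates cover counting error only. Promoters came from RefSeq.

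The members, lists and tests were chosen with earlier results of these data known. Named genes are LDB1, LMO2, TRIM28, SETDB1, the 12 largest called rises and falls among members (all 17 called), the 6 most abundant, those next to the threshold, and 31 genes with known roles. Same-numbered libraries did not deviate together (correlation 0.0196 over 13300 genes), so no pairing was used. Alternatives were another pseudocount, filter, scaling, variance model and member threshold, and each library left out.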

Additional observations from a re-analysis of the deposited data

How the results depend on the processing

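All 17 changed members kept their direction in 12 alternatives each, and ZNF697, ZNF622, ZNF865, ZNF467, ZNF417, ZNF512B, ZNF692, ZNF639 and ZNF30 kept their call in all of them. Limma treat is not among these 12, and with it only ZNF697 and ZNF622 kept their call. With the replicate block the counts were 7 higher and 10 lower, and the block changed no call of a member. The replicate numbers do not pair the libraries, since the deviations of same-numbered libraries had a correlation of 0.0196. Leaving out each library in turn gave 6 to 7 higher and 9 to 11 lower, and medians from -0.11 to -0.055 in members, from -0.090 to -0.019 on chromosome 19 (-0.019 without sh-LDB1 replicate 2) and from -0.11 to -0.073 elsewhere. These fits assume that a lone library varies like the other group.

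The pseudocount of 0.1 gave 11 higher and 19 lower (26.9% of all tested genes called) and a median of -0.14 off chromosome 19. Without the fold threshold there were 45 and 68, with limma treat 2 and 0 (3 and 2 at an unadjusted p below 0.05), and with voom on estimated reads, chosen after seeing the data, 11 higher and 12 lower (27.1% of all tested genes called) and medians of 0.032, 0.043 and -0.013 in members, on chromosome 19 and elsewhere. Equal summed FPKM gave 4 lower and medians of 0.062, 0.067 and 0.025, and the median of ratios gave 8 higher, 7 lower and medians of -0.0015, 0.0078 and -0.036. A member threshold of 5 FPKM gave 5 lower and medians of 0.19 on chromosome 19 and -0.16 elsewhere, and one of 1 FPKM a median of -0.091 elsewhere. Without the 22 members with shared words, also chosen after seeing the data, the medians were -0.045, 0.013 and -0.092. With no filter on low values 9.67% of all 28412 genes were called, as near-silent genes enter. The cause of the other shifts was not tested.

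The sign changed in genes near 0: under equal summed FPKM in ZNF318 (0.0064), ZNF385A (0.084), ZNF148 (0.12) and SETDB1 (0.062), under the median of ratios in ZNF385A (0.013) and ZNF148 (0.065), with voom in ZNF385A (0.045), ZNF148 (0.13) and SETDB1 (0.031), without sh-NC replicate 2 in ZNF148 (0.079) and ZNF644 (-0.0071), and without sh-LDB1 replicate 2 in ZNF148 (0.068). Over the libraries left out, ZNF148 ran from -0.092 to 0.079 and ZNF644 from -0.0071 to 0.024. None of these values passed the test.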
